A study of Mus musculus with 8 samples.

Results

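The genes of 10 inflammatory mediators were followed across dendritic cells sorted from mouse tumours: Il1b, Il1a, Il1rn, Tnf, Il6, Il10, Il15, Il18, Il27 and Ptgs2. They were chosen by name, not by their values, and all 10 were found among the 24369 gene symbols of the count table. All 10 also passed the filter on low counts that left 11394 genes for testing. The cells came from tumours of MC38-EGFP, a mouse colon carcinoma line that carries enhanced green fluorescent protein (EGFP), in mice labelled wild type. By fluorescence-activated sorting they were divided into cDC1 and cDC2, the conventional dendritic cell subsets best known for priming CD8 and CD4 T cells, and each subset into an EGFP-negative and an EGFP-positive fraction. Each of the 4 groups is represented by 2 libraries, and the labels name no drug, age or sex for any of the 8. A label field for cell type reads colon cancer in all of them, so the sorted population was taken from the sample titles. They do not say whether replicates came from separate animals, so the p-values reflect the spread among these libraries alone, and that spread may be technical.

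These mediators form the early alarm output of myeloid cells. Interleukin 1 alpha and beta signal through 1 shared receptor, and interleukin 1 receptor antagonist, the product of Il1rn, occupies that receptor without signalling. Il18 belongs to the same family and, like interleukin 1 beta, is cut to its active form by caspase-1 after an inflammasome assembles. Tnf and Il6 encode the classical pyrogenic cytokines, Il10 and Il27 encode cytokines with largely restraining roles, and Il15 supports NK cells and memory CD8 T cells. Ptgs2 encodes the inducible cyclooxygenase, the committed step towards prostaglandin E2. The set is therefore not purely inflammatory: Il1rn and Il10 encode inhibitors.

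Several features of the libraries bear on these genes. Totals ranged from 17869441 to 22195681 counts, of which the ribosomal precursor Rn45s took 19.4% to 35.6%. Levels are given as CPM, meaning counts scaled by TMM to a common library size. The 10 cDC1 markers summed to 3420 to 7668 CPM in the cDC1 libraries and 379 to 923 CPM in cDC2, without overlap. Xcr1 was at 103 to 331 CPM in cDC1 against 0.0890 to 5.31 CPM in cDC2. Cadm1 alone of the 10 overlapped, at 30.3 to 98.8 CPM in cDC1 and 0 to 50.2 CPM in cDC2. The 9 cDC2 markers in the table summed to 895 to 947 CPM in the cDC2 libraries and 32.9 to 396 CPM in cDC1, without overlap. Of these, only Sirpa, Itgam and Klf4 were higher in every cDC2 library than in any cDC1 library. Cd209a, Irf4, Clec10a, Mgl2, Epcam and Clec4a4 overlapped. Mgl2 reached 220 CPM in EGFP-negative cDC1 replicate 2 against 27.8 to 149 CPM in cDC2. Clec10a reached 82.9 CPM in EGFP-negative cDC1 replicate 1 against 21.1 to 102 CPM in cDC2. The 10 markers shared by conventional dendritic cells summed to only 67.3 to 115 CPM in cDC2 against 910 to 6155 CPM in cDC1. The highest sum, in EGFP-positive cDC1 replicate 2, was mostly Ccr7 (5498 CPM). Flt3 was at 0 to 10.8 CPM and Zbtb46 at 0 to 1.04 CPM in cDC2. Itgax overlapped (51.9 to 82.6 CPM in cDC2 and 8.05 to 83.0 CPM in cDC1), as did Fscn1 (0 to 6.69 and 0 to 78.5 CPM). In the cDC2 libraries 16 macrophage markers summed to 28182 to 56906 CPM, with none at 0 counts, against 2250 and 3436 CPM in EGFP-negative cDC1, where 2 of the 16 were at 0. EGFP-positive cDC1 replicates stood far apart on the same sum, at 513 CPM in replicate 1 and 13139 CPM in replicate 2. The latter was mostly Lyz2 (8773 CPM), with Apoe at 1543, Arg1 at 1362 and Csf1r at 401 CPM. In that library C1qa was at 4.21 CPM, Adgre1, Mrc1, Pf4 and Folr2 at 0.0702 to 0.421 CPM, and Mertk at 0. On 9 stromal markers these replicates differed the other way, at 811 CPM (mostly Sparc, at 674 CPM) and 3.09 CPM. EGFP-positive cDC2 replicates had 0.312 and 172 CPM of stromal markers, and the 4 EGFP-negative libraries 2.23 to 10.8 CPM, with 2 to 6 of the 9 at 0 in each library. Of 11 neutrophil markers 5 to 9 were at 0 counts in each library, S100a9, Retnlg, Ngp and G0s2 among them in all 8, and their sum of 0.175 to 998 CPM was mostly Clec4d (0.131 to 957 CPM). In such bulk samples, fewer cells of a type and less RNA per cell cannot be told apart, and the part of macrophage or stromal RNA in the results below was not tested.

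The stretches just upstream of the transcription starts are shown for the 6 members on which most results turn, because they let the reader compare the core promoters of these genes directly. Each runs 5′ to 3′ over the 250 bases before the first start in RefSeq (GRCm38.p6): Il1b at chr2:129371140-129371389 (minus strand), Il1a at chr2:129309973-129310222 (minus strand), Il1rn at chr2:24336610-24336859 (plus strand), Tnf at chr17:35202008-35202257 (minus strand), Il6 at chr5:30012864-30013113 (plus strand) and Ptgs2 at chr1:150099781-150100030 (plus strand). Capitals mark matches, on either strand, to a TATA box (TATAAA), an AP-1 site (TGANTCA), a C/EBP site (TTGCNNAA) or the kappaB consensus, and no matches overlap. Il1rn also has starts 2 and 3 downstream, whose stretches (chr2:24345041-24345290 and chr2:24345121-24345370) are not shown.

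Il1b: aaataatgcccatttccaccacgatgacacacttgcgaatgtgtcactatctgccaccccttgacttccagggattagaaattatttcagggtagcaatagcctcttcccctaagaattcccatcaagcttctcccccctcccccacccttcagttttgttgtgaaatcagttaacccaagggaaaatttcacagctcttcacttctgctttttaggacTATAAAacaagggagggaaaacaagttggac

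Il1a: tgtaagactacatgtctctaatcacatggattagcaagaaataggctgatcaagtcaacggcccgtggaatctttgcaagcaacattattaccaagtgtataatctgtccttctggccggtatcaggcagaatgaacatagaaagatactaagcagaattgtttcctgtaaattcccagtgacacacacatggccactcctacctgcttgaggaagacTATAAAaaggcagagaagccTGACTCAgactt

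Il1rn: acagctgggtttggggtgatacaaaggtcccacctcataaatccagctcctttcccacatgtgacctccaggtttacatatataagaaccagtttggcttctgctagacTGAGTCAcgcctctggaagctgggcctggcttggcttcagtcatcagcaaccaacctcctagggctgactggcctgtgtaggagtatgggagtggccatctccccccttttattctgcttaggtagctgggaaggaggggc

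Tnf: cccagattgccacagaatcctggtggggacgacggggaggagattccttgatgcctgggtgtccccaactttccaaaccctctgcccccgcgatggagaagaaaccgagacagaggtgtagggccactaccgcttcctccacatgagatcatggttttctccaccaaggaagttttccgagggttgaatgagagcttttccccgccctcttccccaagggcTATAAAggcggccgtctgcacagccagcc

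Il6: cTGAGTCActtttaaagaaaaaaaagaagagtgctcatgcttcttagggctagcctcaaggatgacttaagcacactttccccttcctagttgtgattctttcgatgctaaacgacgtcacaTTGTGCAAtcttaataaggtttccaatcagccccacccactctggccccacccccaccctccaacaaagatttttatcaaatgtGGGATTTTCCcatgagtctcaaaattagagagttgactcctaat

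Ptgs2: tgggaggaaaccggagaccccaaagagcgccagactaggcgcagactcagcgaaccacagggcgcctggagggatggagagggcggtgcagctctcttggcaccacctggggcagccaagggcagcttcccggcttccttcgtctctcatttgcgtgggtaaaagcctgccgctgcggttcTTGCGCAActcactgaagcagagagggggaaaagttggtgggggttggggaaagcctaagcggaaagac

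A match to TATAAA was found in 4 of the 7 members with an entry, namely Il1b, Il1a, Tnf and Il18, against 12.4% of all 32851 promoters searched. It began 31, 32 and 29 bases before the start in Il1b, Il1a and Tnf, but in Il18 it lay 175 bases upstream and on the reverse strand. AP-1 letters were present in 3 (Il1a, Il1rn and Il6) against 6.75%, C/EBP letters in 2 (Il6 and Ptgs2) against 9.56%, and the kappaB consensus in Il6 alone against 7.25%. The AP-1 match of Il1rn lay before start 1, and the stretches before its starts 2 and 3 held no match to any of these motifs. These are matches of letters in a short window, and nothing in the counts shows which start was used. For Il10, Il15 and Il27 no entry was matched.

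Across the 7 comparisons that the sort implies, 0 of the 10 members passed an adjusted p of 0.05 in edgeR's quasi-likelihood test. Over all genes tested, 1.32% passed between the subsets over both fractions (0.816% higher and 0.5% lower in cDC1), 0.36% between the subsets among EGFP-negative cells and 0.228% among EGFP-positive cells. The other 4 comparisons (EGFP over both subsets, within cDC1, within cDC2, and the interaction) had 0% each. At an unadjusted p under 0.05 the members numbered 3 of 10 for subset over both fractions, where the background was 13.5%, 2 of 10 among EGFP-negative cells (9.58%) and 1 of 10 among EGFP-positive cells (15.9%). For EGFP they numbered 0 of 10 over both subsets (5.22%), 2 of 10 in cDC1 (12.7%) and 1 of 10 in cDC2 (2.63%), with 2 of 10 for the interaction (10.4%). DESeq2 called 3 members for subset over both fractions, 2 in each simple subset comparison, 2 for EGFP in cDC1 and 0 elsewhere. Of all 11394 genes it called 1160 for subset over both fractions, 830 among EGFP-negative cells, 1578 among EGFP-positive cells and 1319 for EGFP in cDC1. Voom with library quality weights called 3 for subset over both fractions, 1 for EGFP over both subsets, 2 for subset among EGFP-negative cells and 0 elsewhere. Of all genes it called 846, 4 and 471 in those comparisons. The biological coefficient of variation was 1.13 with 2 libraries a group.

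**Figure D1:**
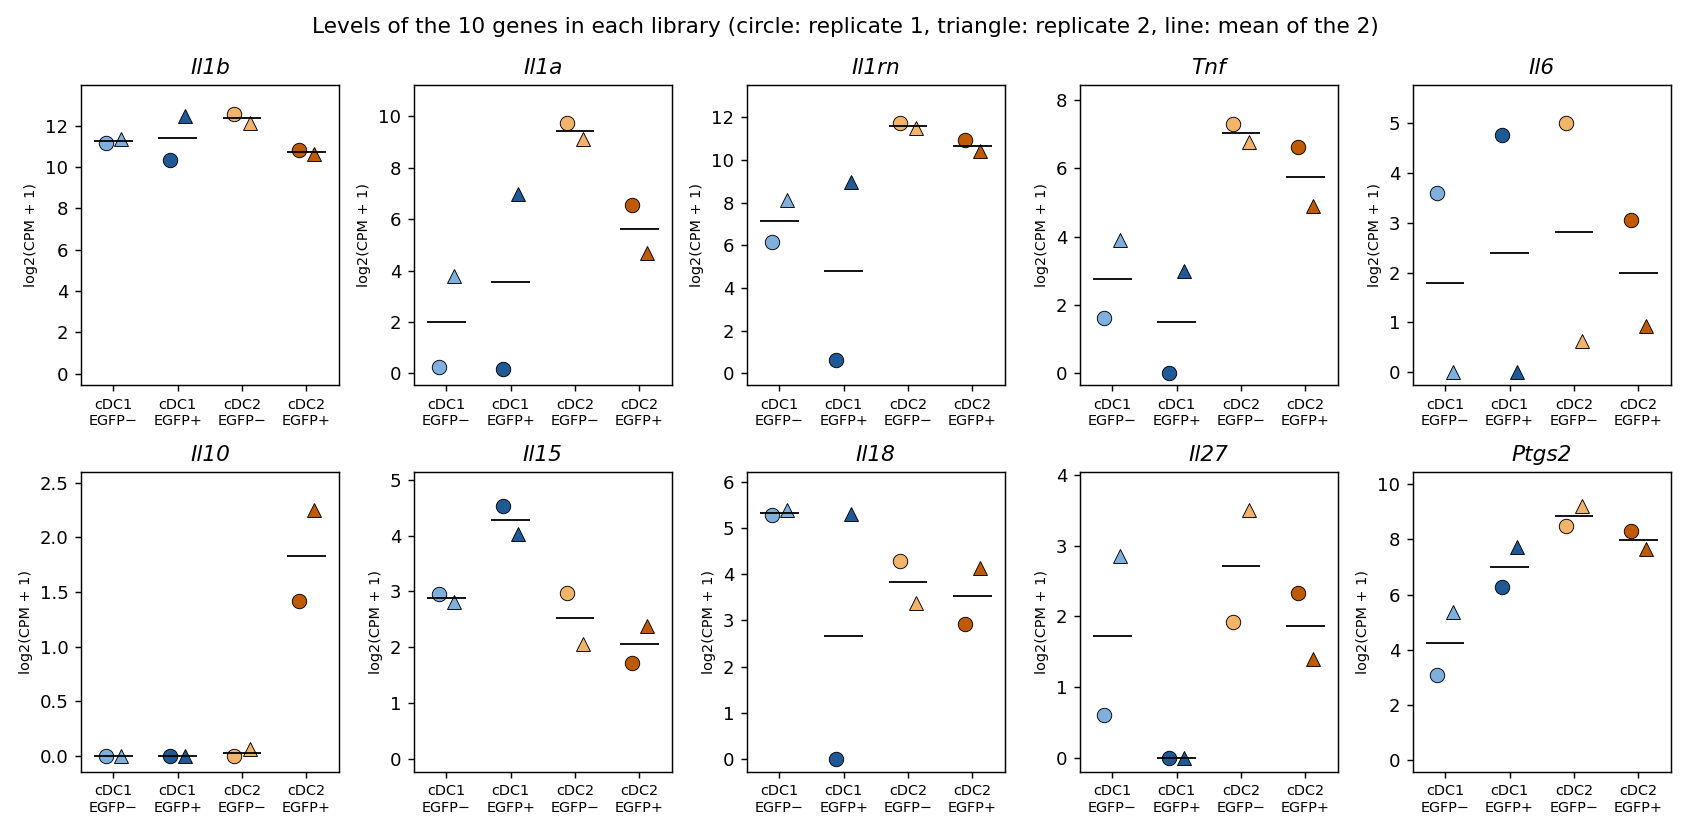
Level of each of the 10 genes in each library, as log2(CPM + 1), by group. Circles are replicate 1, triangles replicate 2 and lines the mean of the log2 values. Il1rn and Tnf are higher in all 4 cDC2 libraries than in any cDC1 library, and Il6 is higher in replicate 1 of every group.

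Il1b (chr2:129364570-129371139, GRCm38, protein coding, 6 exon blocks) was the most abundant member per kilobase of exon in all 8 libraries. It alone took 0.146% to 0.571% of all counts. Its level was 2329 and 2614 CPM in EGFP-negative cDC1, 1282 and 5645 CPM in EGFP-positive cDC1, 6174 and 4525 CPM in EGFP-negative cDC2, and 1792 and 1559 CPM in EGFP-positive cDC2 (replicates 1 and 2). EGFP-negative cDC2 thus stood highest by mean and EGFP-positive cDC2 lowest, while the replicates of EGFP-positive cDC1 lay so far apart that they overlapped every other group.

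The difference in Il1b between the subsets had opposite signs in the 2 EGFP fractions. Among EGFP-negative cells the log2 fold change of cDC1 over cDC2 was −1.11 ± 0.60 (standard error, edgeR, adjusted p = 0.606), and among EGFP-positive cells it was 1.05 ± 0.60 (adjusted p = 0.409). EGFP-positive cDC2 had less Il1b than EGFP-negative cDC2 in both replicates (−1.67 ± 0.61, unadjusted p = 0.0275, adjusted p = 1), without overlap. In cDC1 the same difference was 0.49 ± 0.60 (adjusted p = 0.792), with overlap. The interaction tests whether the difference in Il1b between the EGFP fractions was unlike in the 2 subsets. It was 2.16 ± 0.85 and missed the threshold (edgeR adjusted p = 0.448).

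These values depended on single libraries. Without EGFP-positive cDC1 replicate 1, the log2 fold change of Il1b among EGFP-positive cells was 1.75 and the interaction 2.87. Without replicate 2 the fold change among EGFP-positive cells was −0.38 and that of EGFP within cDC1 −0.94. Each of these refits left 1 library in that group and took its spread from the other groups, so no p-values are given for them. Replicate 2 is also the cDC1 library with 13139 CPM of macrophage markers, mostly Lyz2 (8773 CPM). In the same library Ccr7, a receptor of migratory dendritic cells, was at 5498 CPM (368 CPM in replicate 1).

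Il1a (chr2:129299610-129309972), which lies 54598 bases from Il1b, covered a far wider range than its neighbour. Its level was 0.187 and 12.7 CPM in EGFP-negative cDC1 and 0.131 and 124 CPM in EGFP-positive cDC1. In cDC2 it was 848 and 561 CPM in the EGFP-negative and 91.9 and 25.0 CPM in the EGFP-positive fraction. The cDC1 values in replicate 1 rested on 4 and 3 counts, at about the floor of 3 counts. Both EGFP-negative cDC2 libraries exceeded all 6 others.

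Among EGFP-negative cells the fitted difference in Il1a was the largest of the 10 members, at −6.77 ± 2.84 (edgeR adjusted p = 0.52; 0.00798, by DESeq2, to 1 over the alternatives). In cDC2, EGFP-positive cells had less in both replicates (−3.59 ± 2.44, adjusted p = 1). The interaction was 6.86 ± 3.43 (adjusted p = 0.515) and turned to −1.95 without EGFP-positive cDC1 replicate 2. Per kilobase, Il1b exceeded Il1a by 7.54 and 8.35 times in EGFP-negative cDC2, by 20.2 and 64.5 times in EGFP-positive cDC2, and by 213 and 47.1 times in replicate 2 of EGFP-negative and EGFP-positive cDC1. The ratio of the 2 agonist genes was thus lowest in EGFP-negative cDC2. Exons of Il1a share 222 bases with Gm14023 on the opposite strand, and those of Il1b 25 bases with Il1bos. The use of strand in counting is not given, so reads from these partners cannot be told apart.

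Il1rn (chr2:24336853-24351494), the receptor antagonist gene, lies far from that pair on the same chromosome. Its level was 69.6 and 279 CPM in EGFP-negative cDC1 and 0.569 and 496 CPM in EGFP-positive cDC1. In cDC2 it was 3400.1 and 2850.2 CPM in the EGFP-negative and 1977 and 1348 CPM in the EGFP-positive fraction. All 4 cDC2 libraries lay above all 4 cDC1 libraries, and within cDC2 the EGFP-negative pair lay above the EGFP-positive pair.

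Over both fractions Il1rn had a log2 fold change of −3.45 ± 1.49 in cDC1 over cDC2 (edgeR, unadjusted p = 0.0532, adjusted p = 0.377). DESeq2 put it past the threshold (−3.47, adjusted p = 0.0255; 0.00194 to 0.695 over all alternatives). Among EGFP-negative cells it was −4.16 ± 2.12 (edgeR adjusted p = 0.588, and 0.00651 to 1 over all alternatives). With each library left out that difference ran from −5.49 to −3.49. The EGFP-positive cDC1 libraries are not part of that contrast but enter its spread. Without replicate 2 of that group, its 1 remaining library held 13 counts. Differences of Il1rn that set this group alone against another were not read from that refit.

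The balance of agonist to antagonist transcripts separated the subsets. Per kilobase of exon, Il1b exceeded Il1rn by 97.1 and 27.2 times in EGFP-negative cDC1, and by 6543 times (on 13 Il1rn counts) and 33.0 times in EGFP-positive cDC1. In cDC2 the ratio was 5.27 and 4.61 in EGFP-negative and 2.63 and 3.36 in EGFP-positive libraries. Expressed as a share of Il1a, Il1b and Il1rn together, Il1rn made up 14.3% to 26.6% in the cDC2 libraries and 0.0153% to 3.53% in the cDC1 libraries, without overlap. Within cDC2 the share was 14.3% and 16.2% in EGFP-negative and 26.6% and 22.7% in EGFP-positive cells. The ratios and shares divide by all annotated exonic bases, 1907 for Il1b and 5535 for Il1rn, whichever isoform is made. As plain counts, Il1b over Il1rn was 1.82 and 1.59 in EGFP-negative cDC2 and 0.907 and 1.16 in EGFP-positive cDC2. In cDC1 the plain ratio was 9.36 to 2254. Levels of RNA do not give the amounts of secreted protein.

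**Figure D2:**
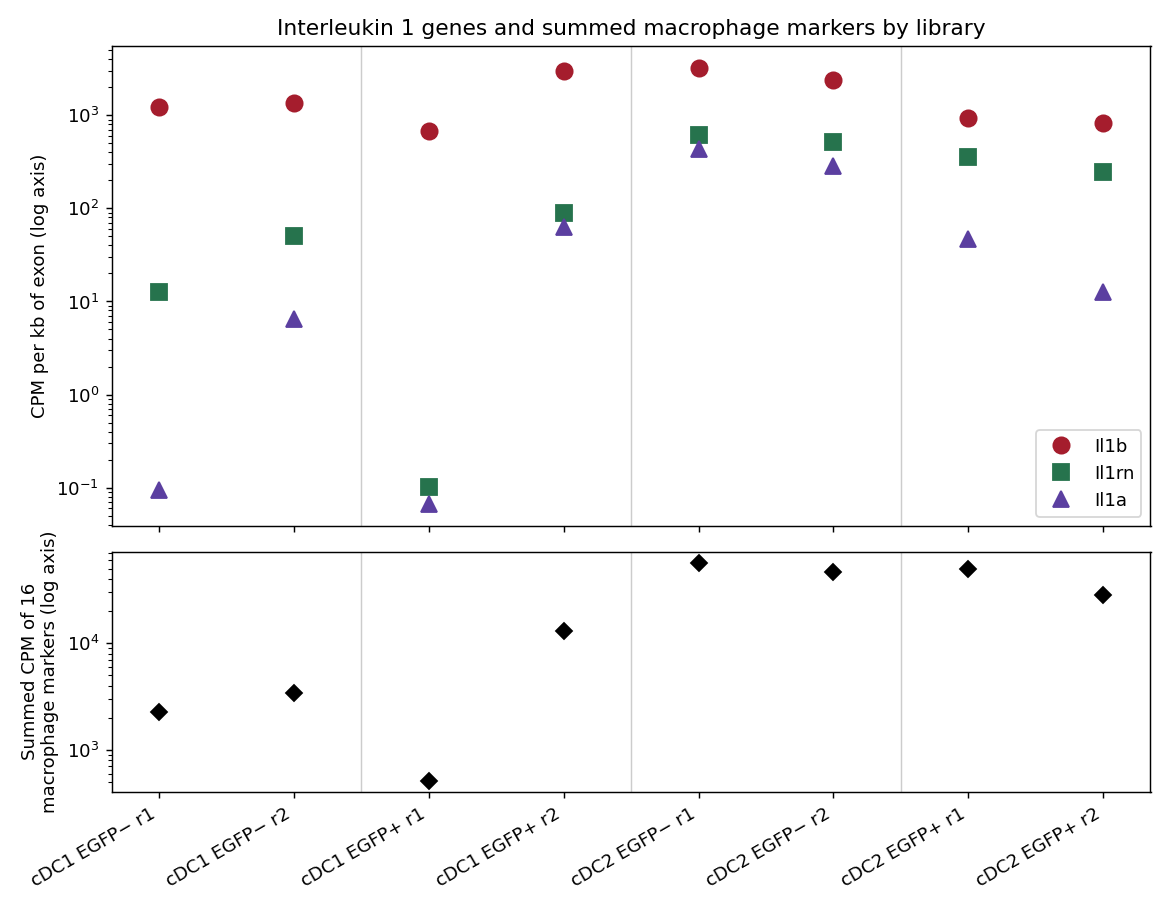
Upper panel: Il1b, Il1rn and Il1a in CPM per kilobase of exon (log axis) in each library, r1 and r2 being the replicates. Lower panel: summed CPM of 16 macrophage markers (log axis) in the same libraries. On this scale per kilobase Il1b is highest everywhere. Il1rn and Il1a are lowest in EGFP-positive cDC1 replicate 1, where the macrophage sum is also lowest, at 513 CPM.

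Il18 (chr9:50554827-50581840) followed another pattern. Its level was 37.8 and 40.8 CPM in EGFP-negative cDC1, 0 and 38.7 CPM in EGFP-positive cDC1, 18.5 and 9.44 CPM in EGFP-negative cDC2, and 6.56 and 16.7 CPM in EGFP-positive cDC2. Among EGFP-negative cells it was the single member whose cDC1 libraries both exceeded the cDC2 libraries, where 21.9% of tested genes were so placed. The log2 fold change there was 1.49 ± 2.05 (edgeR adjusted p = 0.958). The 2 cDC2 fractions overlapped. Without EGFP-positive cDC1 replicate 2, the library with 0 counts was left alone in its group. Differences of Il18 that set that group alone against another were not read from that refit.

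Among 18 tested partners of interleukins 1 and 18 (receptors, inflammasome and adaptor genes), 0 passed the threshold of edgeR in any of the 7 comparisons. For subset over both fractions 6 of 18 had an unadjusted p under 0.05 in edgeR, beside 13.5% of all genes tested. In the other comparisons 0 to 2 of 18 did, beside 2.63% to 15.9% of all genes. The list's median log2 fold change over both fractions was −0.85 beside −0.28 over all genes tested. Il1r2, the decoy receptor that binds interleukin 1 without signalling, was at 547 and 628 CPM in EGFP-negative cDC1 and 187 and 487 CPM in EGFP-positive cDC1. In cDC2 it was at 262 and 342 CPM in the EGFP-negative and 51.2 and 81.4 CPM in the EGFP-positive fraction. Its difference of 1.65 ± 0.42 in cDC1 over cDC2 had an edgeR adjusted p = 0.114 (0.00942, by DESeq2, to 0.351 over the alternatives). The signalling receptor gene Il1r1 stood at 0 to 0.323 CPM in all libraries. Antagonist and decoy receptor thus lay on opposite sides: Il1rn highest in cDC2, Il1r2 highest in EGFP-negative cDC1. Nlrp3, the inflammasome sensor, was at 5.70 and 8.06 CPM in EGFP-negative cDC1 against 56.1 and 43.8 CPM in EGFP-negative cDC2. Its difference of −2.86 ± 0.87 had an adjusted p of 0.328 by edgeR, with 0.0141 (DESeq2) to 1 over the alternatives. With each library left out the difference ran from −3.14 to −2.64.

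Tnf (chr17:35199381-35202007) was low in cDC1 throughout. Its level was 2.06 and 13.8 CPM in EGFP-negative and 0 and 6.95 CPM in EGFP-positive cDC1, against 158 and 107 CPM in EGFP-negative and 97.1 and 29.0 CPM in EGFP-positive cDC2. With Il1rn it made up the 2 of 10 members whose 4 cDC1 libraries all lay below the 4 cDC2 libraries, an arrangement shown by 8.56% of tested genes. Within each subset the EGFP-positive mean was the lower, with overlap in cDC1 only.

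The log2 fold change of Tnf over both fractions was −4.13 ± 1.36 in cDC1 over cDC2 (edgeR, unadjusted p = 0.0164, adjusted p = 0.249). It passed the threshold by DESeq2 (adjusted p = 0.0077, the lowest of a range up to 0.583 over all alternatives). Without EGFP-positive cDC1 replicate 1 the fold change was −3.70. Without replicate 2 the library with 0 counts was left alone in its group, so the difference among EGFP-positive cells was not read from that refit. Among EGFP-negative cells alone the fold change was −4.06 ± 1.97 (edgeR adjusted p = 0.568). Of 9 tested genes of TNF release and signalling, 0 passed in any comparison. Traf1, an adaptor of TNF receptors, pointed the other way at 232 and 125 CPM in EGFP-negative and 150 and 457 CPM in EGFP-positive cDC1, against 25.4 to 78.3 CPM in cDC2 (2.47 ± 0.56, adjusted p = 0.0759; 0.000874 to 0.301 over the alternatives). Without EGFP-positive cDC1 replicate 2 the difference in Traf1 was 1.87. Rhbdf2, which carries the TNF-releasing protease ADAM17 to the cell surface, was at 3.18 and 2.75 CPM in EGFP-negative and 71.5 and 49.8 CPM in EGFP-positive cDC1 (4.35 ± 0.63, adjusted p = 0.0793; 2.46e-13 to 0.568 over the alternatives). With each library left out the difference in Rhbdf2 ran from 4.07 to 4.59.

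Il6 (chr5:30013114-30019981) was separated by replicate number and not by group. Replicate 1 gave 11.1 CPM in EGFP-negative cDC1, 26.3 CPM in EGFP-positive cDC1, 30.9 CPM in EGFP-negative cDC2 and 7.29 CPM in EGFP-positive cDC2, on 140 to 602 counts. Replicate 2 gave 0, 0, 0.534 and 0.891 CPM in the same order, on 0 to 18 counts. All 4 libraries numbered 1 lay above all 4 numbered 2, as they did for 0.614% of tested genes, and no other member showed this. What the number marks is not stated in the labels.

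For the groups, the log2 fold change of Il6 in cDC1 over cDC2 was 0.089 ± 2.38 (edgeR adjusted p = 0.998). With the replicate number as a block it was −2.50 (adjusted p = 0.686), and with 1 library left out it ran from −2.86 to 2.29. No direction between the groups can be read from these libraries.

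**Figure D3:**
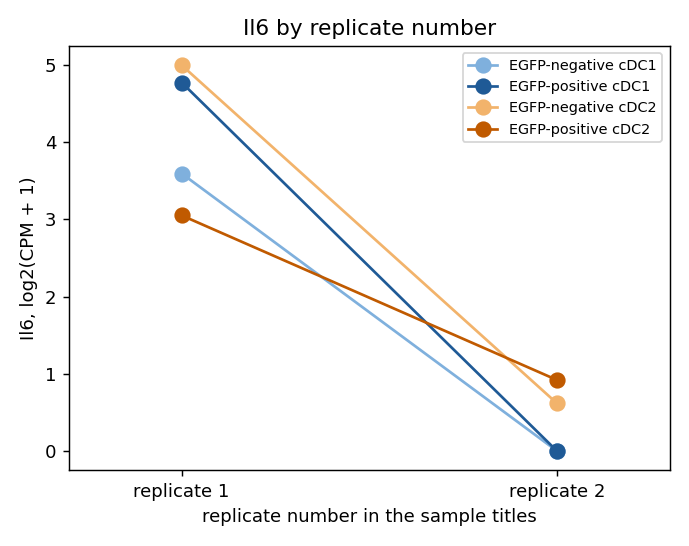
Il6 as log2(CPM + 1) in the 2 replicates of each group, lines joining libraries of the same group. Each of the 4 lines falls from replicate 1 to replicate 2, from 7.29 to 30.9 CPM down to at most 0.891 CPM; the numbers are labels and not an order.

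Il10 (chr1:131019845-131024974) had 0 counts in all 4 cDC1 libraries. In cDC2 it had 0 and 1 counts in the EGFP-negative and 32 and 76 counts (1.67 and 3.76 CPM) in the EGFP-positive fraction. Against a floor of 3 counts over the 4 cDC1 libraries, its mean in cDC2 was at least 36.5-fold higher, or at least 15.2-fold without EGFP-positive cDC2 replicate 2 (edgeR, unadjusted p = 0.0415, adjusted p = 0.342). EGFP-positive cDC2 exceeded EGFP-negative cDC2 by a ratio of 112 (exact 95% counting interval 19.8 to 4481), on 108 against 1 counts (edgeR, unadjusted p = 0.092, adjusted p = 1). Such floors and intervals cover counting error only, because amplified reads lacking molecular identifiers do not stand for separate molecules. It was the single member higher in EGFP-positive than in EGFP-negative cDC2 without overlap, as 22.6% of tested genes were.

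Il27 (chr7:126589010-126594941), encoding the p28 chain, was low in all groups. Its level was 0.514 and 6.2 CPM in EGFP-negative cDC1, 0 in both EGFP-positive cDC1 libraries, 2.8 and 10.3 CPM in EGFP-negative cDC2, and 4.01 and 1.63 CPM in EGFP-positive cDC2. Relative to 3 counts over the 2 EGFP-positive cDC1 libraries, EGFP-negative cDC1 was at least 41.5-fold higher (adjusted p = 0.321 by edgeR, 0.00763 by DESeq2, 0.00763 to 0.636 over the alternatives) and EGFP-positive cDC2 at least 34.9-fold higher (adjusted p = 0.25 by edgeR, 0.00918 by DESeq2, 0.00918 to 0.621 over the alternatives). The first bound rested on replicate 2 of EGFP-negative cDC1: without it the fold was at least 6.36, and without replicate 1 at least 76.7. The second was at least 20.2 without EGFP-positive cDC2 replicate 1. Exons of Il27 share 103 bases with Apobr on the opposite strand. Ebi3, whose product pairs with p28, stood at 1.66 to 16.8 CPM over the 8 libraries.

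Of 13 tested genes of the interleukin 6 and 10 families, their receptors and their signalling, 0 passed in any comparison. Socs3, a feedback inhibitor induced by STAT3, was at 74.5 and 48.4 CPM in EGFP-negative and 42.4 and 53.2 CPM in EGFP-positive cDC1, against 69.2 to 254 CPM in cDC2 (−1.37 ± 0.36, edgeR adjusted p = 0.125; 0.0235 to 0.477 over the alternatives). Il12b, encoding the p40 chain of interleukin 12, was at 16.8 and 98.6 CPM in EGFP-negative cDC1 and 25.3 and 4651 CPM in EGFP-positive cDC1, against 0.0521 to 2.23 CPM in cDC2 (9.31 ± 3.06, adjusted p = 0.26; 7.72e-06, by DESeq2, to 0.606 over the alternatives). The value of 4651 CPM is again that of EGFP-positive cDC1 replicate 2, and without that library the difference was 6.21.

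Il15 (chr8:82331632-82403222) was low but, unlike the other members, highest in EGFP-positive cDC1. Its level was 6.78 and 5.97 CPM in EGFP-negative cDC1, 22.2 and 15.3 CPM in EGFP-positive cDC1, 6.84 and 3.16 CPM in EGFP-negative cDC2, and 2.29 and 4.21 CPM in EGFP-positive cDC2. Both EGFP-positive cDC1 libraries lay above the 6 others, which overlapped between neighbouring groups.

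The log2 fold change of Il15 between the subsets among EGFP-positive cells was 2.53 ± 1.33 (edgeR adjusted p = 0.378; 0.023, by DESeq2, to 0.773 over the alternatives). That of EGFP within cDC1 was 1.56 ± 1.29 (adjusted p = 0.62; 0.215 to 0.949). Il15ra, the chain that presents interleukin 15 to neighbouring cells, was also higher by value in cDC1: 34.3 and 16.9 CPM in EGFP-negative and 18.8 and 40.4 CPM in EGFP-positive cDC1, against 5.20 to 9.27 CPM in cDC2. All 4 cDC1 libraries lay above all 4 cDC2 libraries, as for 3.96% of tested genes (1.95 ± 0.67, adjusted p = 0.247; 0.00438, by DESeq2, to 0.564 over the alternatives). Of the 5 tested genes of this list 0 passed in any comparison.

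Ptgs2 (chr1:150100031-150108227) was ordered by group. Its level was 7.38 and 40.7 CPM in EGFP-negative cDC1, 76.9 and 210 CPM in EGFP-positive cDC1, 313 and 199 CPM in EGFP-positive cDC2, and 355 and 587 CPM in EGFP-negative cDC2. Each group lay above the one before without overlap, except that EGFP-positive cDC1 and EGFP-positive cDC2 overlapped. Ptgs2 had the smallest p of any member.

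Among EGFP-negative cells the log2 fold change of Ptgs2 in cDC1 over cDC2 was −4.29 ± 0.91 (edgeR, unadjusted p = 0.00182, adjusted p = 0.145). DESeq2 called it (adjusted p = 3.7e-05), as did voom (0.0164), within a range up to 0.554 over the alternatives. With each library left out the edgeR fold change ran from −6.00 to −3.54. Over both fractions it was −2.56 ± 0.96 (adjusted p = 0.299; 0.00581 to 0.577). EGFP went with more Ptgs2 in both cDC1 replicates (2.58 ± 0.84, unadjusted p = 0.017, adjusted p = 0.298; 0.0237, by DESeq2, to 0.568) and with less in both cDC2 replicates (−0.88 ± 0.80, adjusted p = 1). Ptgs2 was the single member with this opposite arrangement free of overlap, which 2.68% of tested genes showed. The interaction was 3.46 ± 1.15 (edgeR, unadjusted p = 0.0187, adjusted p = 0.42). It missed the threshold, so the subsets were not separated by their difference between the EGFP fractions.

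A single partner gene passed the threshold. Ptgs1, the constitutive cyclooxygenase, was at 0.0467 and 0.0466 CPM in EGFP-negative cDC1, with 2 counts in all, and at 40.3 and 34.5 CPM in EGFP-negative cDC2, with 1524. The ratio was 796 (exact 95% counting interval 220 to 6579), with an edgeR adjusted p = 0.0467 for 1 of 13 tested genes lower in cDC1, beside 0.246% of all genes. The edgeR call was lost with the replicate number as a block (adjusted p = 0.115) and without robust estimation (0.0598). It was also lost without any 1 of the 4 EGFP-negative libraries, refits that left 1 library in a group. With each library left out the log2 fold change ran from −9.58 to −9.36. In EGFP-positive cells Ptgs1 was at 41.8 and 27.5 CPM in cDC1 and 4.89 and 29.4 CPM in cDC2. Its difference between the EGFP fractions of cDC1 missed the threshold (edgeR adjusted p = 0.0793, and 2.54e-09 to 0.568 over the alternatives).

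Among EGFP-negative cells 5 of the 13 tested prostaglandin genes had a positive difference in cDC1 over cDC2. Without overlap 2 were higher and 4 lower, beside 21.9% and 26.5% of all genes tested. Pla2g4a, the phospholipase that frees arachidonic acid, was at 7.29 and 13.2 CPM in EGFP-negative cDC1, 29.1 and 22.2 CPM in EGFP-positive cDC1, 99.9 and 73.2 CPM in EGFP-negative cDC2 and 55.5 and 52.3 CPM in EGFP-positive cDC2. Between the subsets among EGFP-negative cells its difference was −3.08 ± 0.52 (edgeR adjusted p = 0.0763, and 2.94e-06 to 0.564 over the alternatives). With each library left out that difference ran from −3.57 to −2.71. Ptges, the inducible prostaglandin E synthase, was at 0.187 and 0.0932 CPM in EGFP-negative cDC1 and at 68.7 and 40.7 CPM in EGFP-negative cDC2. Its adjusted p was 0.328 by edgeR, with 0.000174 (DESeq2) to 0.992 over the alternatives. In EGFP-positive cDC1 it was at 152 CPM in replicate 1 and 0.14 CPM in replicate 2. Those libraries had 811 and 3.09 CPM of stromal markers, with Sparc at 674 and 0.14 CPM. Col3a1 was at 90.8 and 0 CPM and Col1a2 at 40.7 and 2.67 CPM, while Dcn, Pdgfra, Lum and Acta2 were at 0 in both. Ptger4, a receptor for prostaglandin E2, was at 23.2 to 87.4 CPM in cDC1 and 6.74 to 19.7 CPM in cDC2, without overlap (2.06 ± 0.56 over both fractions, adjusted p = 0.14; 0.0106, by DESeq2, to 0.399 over the alternatives).

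**Figure D4:**
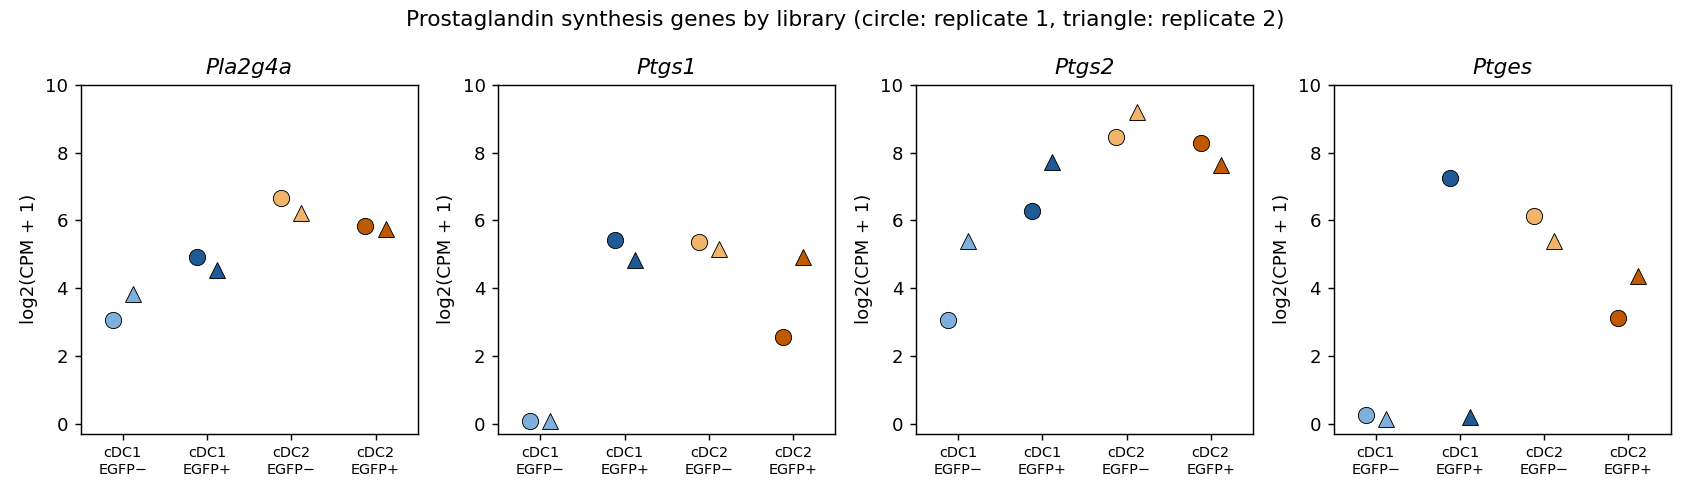
Pla2g4a, Ptgs1, Ptgs2 and Ptges as log2(CPM + 1) in each library, by group, with circles for replicate 1 and triangles for replicate 2. All 4 genes are lowest in EGFP-negative cDC1 by mean, and Ptges differs between the EGFP-positive cDC1 replicates (152 and 0.14 CPM).

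Read across the members, the sorting by EGFP gave different pictures in the 2 subsets. In cDC2, 5 of 10 members (Il1b, Il1a, Il1rn, Tnf and Ptgs2) were lower in both EGFP-positive libraries than in either EGFP-negative one, beside 19.2% of all genes tested, and 1 (Il10) was higher. The members' median log2 fold change was −0.99 beside 0.078 over all genes, and 9 of 10 were negative. In cDC1, 2 of 10 (Il15 and Ptgs2) were higher without overlap (background 11.5%) and 1 (Il27) lower (24%), with a median of 0.50 beside −0.038. The 2 replicates of EGFP-positive cDC1 differed by over 2-fold, on CPM + 1, for 7 of 10 members. The summed macrophage markers in cDC2 were 56906 and 46869 CPM in EGFP-negative and 49917 and 28182 CPM in EGFP-positive libraries, which overlap. Single markers moved both ways: 4 of the 16 were lower in EGFP-positive cDC2 without overlap, namely Lyz2 (22622 and 18508 against 17556 and 10212 CPM), Arg1 (8773 and 7090 against 4706 and 2429 CPM), Csf1r (604 and 507 against 344 and 205 CPM) and Cd68 (749 and 709 against 533 and 229.6 CPM). Folr2 (31.15 and 30.05 against 145 and 183 CPM) and Pf4 (581 and 249.7 against 885 and 784 CPM) were higher without overlap. The part of these markers' RNA in the lower levels of the 5 members was not tested.

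Between the subsets, 5 of 10 members (Il1b, Il1a, Il1rn, Tnf and Ptgs2) had both cDC1 libraries below both cDC2 libraries in the EGFP-negative fraction (background 26.5%). Among EGFP-positive cells 4 (Il1rn, Tnf, Il10 and Il27) were lower (33.2%) and 1, Il15, higher (13.7%). The median over the members was −1.87 among EGFP-negative and −0.38 among EGFP-positive cells, beside −0.038 and −0.30 over all genes. Over both fractions it was −2.95 beside −0.28. Setting members at 0 counts in a group to their bounds, 1 over both fractions and 2 among EGFP-positive cells, left those medians at the same values; among EGFP-negative cells 0 were set, because Il10 had 1 count in cDC2, under the floor. The comparisons among EGFP-negative and EGFP-positive cells share no library, but the comparisons of EGFP within a subset and of the subsets share libraries, so their values are given side by side only.

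**Figure D5:**
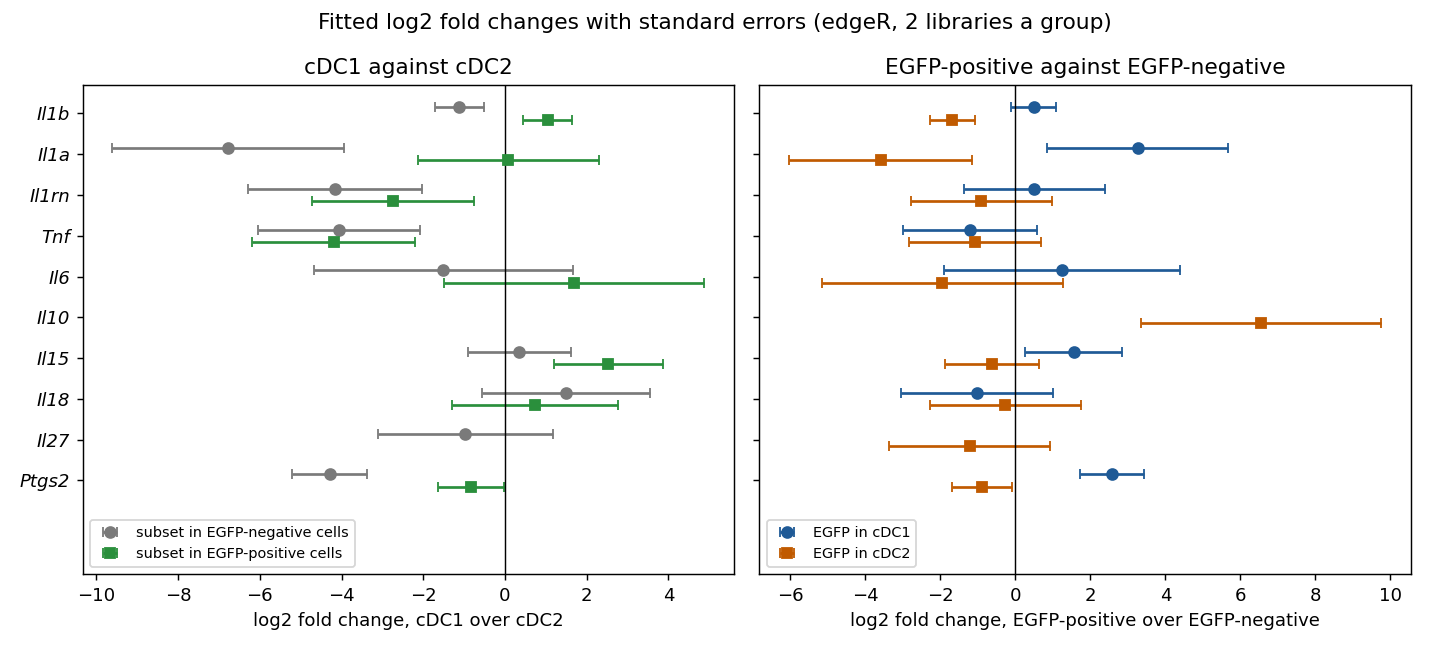
Fitted log2 fold changes (edgeR) with standard errors as bars for each member, 2 libraries a group. Left: cDC1 over cDC2 in each EGFP fraction; right: EGFP-positive over EGFP-negative in each subset. Il10 and Il27 are left out where a group had 0 counts. Il1b, Il1a and Il6 have opposite signs in the 2 fractions on the left. Il1b, Il1a, Il1rn, Il6, Il15 and Ptgs2 have opposite signs in the 2 subsets on the right.

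The genes whose profile over the 8 libraries was nearest to a member were found by the root-mean-square difference of log2(CPM + 1), each gene centred on its own mean, among 5935 genes of at least 10 CPM. All libraries are shared by every such pair, so this is a description. Il1b lay nearest to the phosphodiesterase gene Pde4b (0.284 log2 units), the integrin gene Itgb2 (0.319) and Fermt3, an activator of integrins (0.321), where its own spread was 0.812. Il1rn lay near the lipopolysaccharide co-receptor gene Cd14 (0.299) and the lectin gene Clec4n (0.64), against a spread of 3.47. Cd14 ranged from 1.18 to 831 CPM in EGFP-positive cDC1 and was highest in EGFP-negative cDC2, at 4909 and 4971 CPM.

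Il1a had no close neighbour: the nearest were Lair1 (1.04), Trem1 (1.06) and Dok2 (1.1), against a spread of 3.41. Tnf lay nearest to the osteopontin gene Spp1 (0.65), the prostaglandin D synthase gene Hpgds (0.776) and Rgcc (0.803), and Ptgs2 to Capg (0.332), N4bp1 (0.378) and the urokinase receptor gene Plaur (0.488). Il18 lay nearest to Gnpnat1 (0.361), Kdm2b (0.428) and Il6ra (0.453). Like Il18, each of these 3 differed widely between the EGFP-positive cDC1 libraries, with Gnpnat1 and Kdm2b at 0 and Il6ra at 0.919 CPM in the lower library. With a pseudocount of 0.5 in place of 1 the same 3 genes were named for each member but Il18, for which 2 of 3 were shared.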

How the data were processed

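RNA of sorted tumour dendritic cells was profiled in 8 libraries, made per the labels' protocols by a published low-input method for full-length cDNA and a KAPA kit. The deposited file holds raw read counts, whole numbers that were not normalized. Trimmomatic 0.39, STAR 2.7.5c, Cufflinks 2.2.1 and the mm10 build are named in the submitters' processing notes; the sources used here give no read counter, annotation or strand setting. Columns were matched to samples by the codes in the titles, and 0 were left over.

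The tests used edgeR 4.0.16 under R 4.3.3, with filterByExpr on the groups, TMM scaling, glmQLFit with robust estimation and glmQLFTest over all 11394 genes, with Benjamini-Hochberg adjustment and a threshold of 0.05. All 8 libraries entered a model of 1 mean per group, or, over both levels, of additive subset and EGFP terms. Each standard error is the absolute fold change divided by the root of F. Depth was 17869441 to 22195681 counts, and 3 counts in 1 library correspond to 0.131 to 0.211 CPM. Levels per kilobase and gene positions use GENCODE M21 (GRCm38, the same assembly as mm10), promoters RefSeq. DESeq2 1.42.0, voom in limma 3.58.1 and the other settings in the closing section were alternatives. Ranges of adjusted p over the alternatives include the refits that leave out 1 library. Where such a refit left 1 library in a group, its spread came from the other groups. The steps were tested on simulated data. All members were read in every library; of 5 lists of partner genes, the rule named genes past the threshold in a comparison, or else up to 3 with the lowest p whose mean reached 5 CPM. Il1r1, Ebi3 and Ccr7, and Pla2g4a and Ptges among EGFP-negative cells, fall outside it and were chosen after their values were seen. The members and lists were chosen with earlier results of these data known. For Il1rn, 1 of the 3 genes of nearest profile is not reported here.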

Additional observations from a re-analysis of the deposited data

How the results depend on the processing

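Of 37 differences reported (25 of members, 12 of partner genes), 33 kept their sign in every refit run. The exceptions among members were Il6 between the subsets over both fractions (−2.57 by voom, −2.50 with the replicate number as a block, −2.86 to 2.29 with each library left out) and Il1b for EGFP in cDC1 (−0.088 by voom, −0.94 to 1.20 with each library left out). The others were Il1b between the subsets among EGFP-positive cells (−0.38 to 1.75) and the interaction of Il1a (−1.95 to 11.92), each with a library left out. The cause was not tested.

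Calls among the 10 members rose from 0 by edgeR to 3 for subset over both fractions, 2 among EGFP-negative cells, 2 among EGFP-positive cells and 2 for EGFP in cDC1 by DESeq2. By voom with library quality weights they rose to 3 for subset over both fractions, 2 among EGFP-negative cells and 1 for EGFP over both subsets. Over all 11394 genes tested, DESeq2 called 1160, 830, 1578 and 1319 in the same order, and voom 846, 471 and 4. With each library left out the counts ran from 0 to 1 for subset over both fractions, 0 to 2 among EGFP-negative cells, 0 to 3 among EGFP-positive cells, 0 to 2 for EGFP in cDC1 and 0 to 2 for the interaction. Where 1 library was left in a group, its spread was taken from the other groups, so such calls are not evidence for single genes. The counts over all genes in these refits, given below, varied widely too. No member was called under RLE scaling, either other filter, no robust estimation, the libraries compared alone, 1 mean per group or removal of Rn45s.

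With the replicate number as a block, 0 members were called in any comparison; of the partner genes named, Ptgs1 among EGFP-negative cells lost its call (adjusted p = 0.115). Same-numbered libraries did not deviate together (correlations of −0.224 to 0.0408 over 6 pairs of groups, 2 of them negative), so the numbers were not taken to pair them; what the number marks is not stated.

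Over all genes tested, the count called differed widely: 150 by edgeR and 82 to 1160 by the other settings for subset over both fractions, 41 and 3 to 830 among EGFP-negative cells, 26 and 0 to 1578 among EGFP-positive cells. For EGFP over both subsets, in cDC1, in cDC2 and for the interaction edgeR called 0 and DESeq2 187, 1319, 111 and 707. With each library left out these 7 counts ran from 50 to 277, 1 to 465, 1 to 1273, 0 to 0, 0 to 1050, 0 to 0 and 0 to 668. RLE scaling moved the median of all genes from −0.305 to −0.198 among EGFP-positive cells and from −0.200 to −0.0595 for the interaction. Il10 (0 to 76 counts a library) and Il27 (0 to 232) rest on few counts.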
